A study of Mus musculus with 24 samples.

Results

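The genes described here belong to the 2-cell-like state, a transient state of mouse embryonic stem cells in which transcripts of the 2-cell embryo appear; all but Dppa2, which acts upstream of it, mark that state. They were chosen by symbol: 6 copies of Zscan4 (Zscan4a, Zscan4b, Zscan4c, Zscan4d, Zscan4e and Zscan4f), Tcstv1, Tcstv3, Zfp352 and Dppa2. Of these 10 genes, 9 had a row among the 19780 genes of the authors' deposited table of control cells and among the 19979 of the table of paused cells. Zscan4e had a row in neither and is not described further by value.

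The tables come from poly(A) RNA of E14 mouse embryonic stem cells, all grown on gelatin in serum with leukaemia inhibitory factor. Wild-type cells were compared with Smad2 knockout cells of 2 lines (KO1 and KO2), either untreated or after 12 h of 200 nM INK128, which blocks mTOR and is the pausing treatment. Each of the 6 combinations of genotype and condition has 4 libraries, and neither the labels nor the tables say how the lines were made or which libraries entered each comparison. Each table gives per gene a mean normalized count over libraries, a log2 change with its standard error (SE), and an adjusted p. No value of a single library was analysed here, so the spread between libraries is seen only through the SE, and the 2 knockout lines cannot be told apart, and the depth of each library is unknown. The labels do not say that replicates were separate cultures, so the p-values may measure technical spread alone. They name no separate wild-type lines, so other differences between the lines cannot be told apart from Smad2 loss.

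In the 2-cell-like state a small share of cultured embryonic stem cells switches on Zscan4, the repeat-derived transcripts of that stage and genes near them, and then leaves the state again. ZSCAN4 is a SCAN-domain zinc finger protein known for telomere maintenance. The state is entered through the homeobox factor DUX, and DPPA2 with its partner DPPA4, which nearly all embryonic stem cells express, acts upstream of Dux. In bulk RNA, more cells in the state and more RNA in each such cell cannot be told apart.

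The Zscan4 copies lie on chromosome 7 of GRCm38.p6 (the assembly of mm10, the build in the submitters' processing notes), between 10794241 and 11402318. The RefSeq annotation has Zscan4b, Zscan4c, Zscan4d and Zscan4f as protein-coding, Zscan4a as a transcribed pseudogene and Zscan4e as a pseudogene. Tcstv1 (chr13:119893387-119894785) and Tcstv3 (chr13:120316862-120318261) are 2 members of a second cluster, Zfp352 lies at chr4:90218820-90225687, and Dppa2 lies at chr16:48310274-48319513, 15981 bases beyond the end of Dppa4. RefSeq promoter sequences were matched for 5 of the 10 members: Zscan4b, Zscan4c, Zscan4d, Zscan4f and Zfp352. Those of the Zscan4 copies are shown because they set out how alike the copies are, which bears on every Zscan4 value that follows. Each runs 5′ to 3′ on the strand of its gene, from 250 bases before to 50 bases after the annotated start. Capitals mark the bases that differ from Zscan4c where the windows align, and the windows are offset because the annotated starts differ.
Zscan4c (chr7:11005495-11005794, plus strand): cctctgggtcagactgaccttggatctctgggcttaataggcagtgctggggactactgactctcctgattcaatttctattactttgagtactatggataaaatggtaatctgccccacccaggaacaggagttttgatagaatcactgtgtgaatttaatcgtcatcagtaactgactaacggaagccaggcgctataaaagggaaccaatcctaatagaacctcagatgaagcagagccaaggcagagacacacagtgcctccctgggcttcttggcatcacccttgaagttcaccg
Zscan4f (chr7:11397665-11397964, plus strand): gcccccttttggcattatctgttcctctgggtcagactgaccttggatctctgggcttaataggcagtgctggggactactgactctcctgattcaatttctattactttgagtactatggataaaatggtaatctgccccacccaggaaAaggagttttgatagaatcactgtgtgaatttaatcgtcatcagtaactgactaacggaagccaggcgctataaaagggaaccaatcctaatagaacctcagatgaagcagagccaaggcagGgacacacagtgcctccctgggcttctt
Zscan4d (chr7:11166099-11166398, minus strand): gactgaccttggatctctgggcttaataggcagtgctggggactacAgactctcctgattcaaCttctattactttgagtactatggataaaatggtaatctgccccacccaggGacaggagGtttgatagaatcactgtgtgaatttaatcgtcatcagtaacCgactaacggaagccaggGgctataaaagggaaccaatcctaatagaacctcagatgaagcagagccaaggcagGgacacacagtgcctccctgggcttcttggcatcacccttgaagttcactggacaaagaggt
Zscan4b (chr7:10905001-10905300, minus strand): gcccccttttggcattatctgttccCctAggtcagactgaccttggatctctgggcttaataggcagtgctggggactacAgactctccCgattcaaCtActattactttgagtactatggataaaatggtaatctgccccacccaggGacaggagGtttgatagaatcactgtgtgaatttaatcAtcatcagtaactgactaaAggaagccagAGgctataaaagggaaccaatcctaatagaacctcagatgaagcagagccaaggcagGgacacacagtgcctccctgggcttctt

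Against Zscan4c, the aligned part of the Zscan4f promoter differed at 2 of 277 bases, that of Zscan4d at 7 of 287 and that of Zscan4b at 13 of 277. The letters TGATT, any base, AATCA, the sequence that DUX is known to bind, and TGCACAC, that of ZSCAN4, were searched on both strands; neither contains the other. Neither was found in the 5 promoters of members or in the 17 promoters that matched 16 other genes of the state. The DUX letters occur in 0.033% of the 32851 promoters of the table and TGCACAC in 4.40%.

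The transcripts of the copies are also alike. Over the 10 pairs of the 5 Zscan4 copies with a row, the longest GENCODE M21 transcripts were 94.8% to 97.9% identical in their aligned part. Of all windows of 50 bases in the Zscan4f transcript, 95.3% also occurred in a transcript of another Zscan4 gene or pseudogene, as did 90.3% in Zscan4b, 85.5% in Zscan4c, 63.6% in Zscan4a and 49.6% in Zscan4d. With windows of 100 bases the share was still 89.5% in Zscan4f and 29.6% in Zscan4d. Tcstv1 shared 16.8% and Tcstv3 31.4% of its 50-base windows with each other or with other genes. Zfp352 shared 7.09%, and Dppa2 29.1%, with other annotated genes. How reads that fit several copies were counted is not given in the sources used here, so the Zscan4 values are separate rows but not separate measurements.

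Smad2 itself gave the direction of the comparison, which the tables do not name. Its log2 change was -0.35 (SE 0.07) in the authors' deposited table of control cells and -0.63 (SE 0.06) in that for paused cells. The labels do not give the deleted part of Smad2, so the remaining reads do not measure how complete the loss was. Changes are therefore read as knockout over wild type. Were it wild type over knockout, each direction given here would be the reverse.

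The first comparison asked whether these transcripts differed between Smad2 knockout and wild-type cells in control medium. All 5 Zscan4 copies, Tcstv3, Zfp352 and Dppa2 rose, by 1.27-fold to 1.77-fold, and no member fell, where 21.9% of all genes did. The 8 called members of 9 stand beside a background of 19.5% of all genes called higher in the authors' deposited table of control cells. Calls are an adjusted p under 0.05 over 19778 genes. Of these 8 members, 5 are Zscan4 copies that share windows, so neither this count nor the median below rests on separate measurements. The median log2 change of the 9 members was 0.75, against 0.00 over all genes. A larger log2 change than that of the lowest Zscan4 copy was found in 11% of all genes. If counts are rescaled so that their sum is equal in knockout and wild type, 60.5% of all calls in control cells were higher, against 47.1% as deposited; 8 members were then called higher, and 24.1% of all genes.

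Among the Zscan4 copies in control cells, the log2 changes in the authors' deposited table ran from 0.70 (SE 0.11) for Zscan4d to 0.80 (SE 0.12) for Zscan4b. Zscan4a stood at 0.77 (SE 0.12), Zscan4c at 0.75 (SE 0.11) and Zscan4f at 0.75 (SE 0.11). The distance between the highest and the lowest copy, 0.10, was smaller than the SE of a typical copy, 0.11. That SE is not the error of a difference between copies with shared windows, so whether the copies differ was not tested. For Zscan4c, whose mean was 24764 normalized counts, the authors' deposited value corresponds to 1.68-fold (95% interval 1.45 to 1.95, adjusted p 2.21e-10). Taken as 1 unit, the copies gave 0.75 both as an inverse-variance mean and as a mean weighted by count.

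Tcstv3 and Tcstv1 are related transcripts of the 2-cell embryo, from genes of a cluster on chromosome 13. Tcstv3 rose by 0.82 (log2) in the authors' deposited table of control cells (SE 0.16, adjusted p 5.16e-06), at a mean of 259 normalized counts. Tcstv1 stood at 0.36 in the same authors' deposited table (SE 0.22, adjusted p 0.186), with a mean of only 56.7 normalized counts. Its 95% interval, 0.951-fold to 1.73-fold, includes no change and overlaps the interval of Tcstv3, 1.41-fold to 2.21-fold.

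Zfp352, a zinc finger gene of the 2-cell stage, rose by 0.63 in the authors' deposited table of control cells (SE 0.20, adjusted p 0.00554), at a mean of 250.4 normalized counts. Dppa2 rose least, by 0.34 in the authors' deposited table (SE 0.06, adjusted p 2.59e-07), which is 1.27-fold (95% interval 1.17 to 1.37). Its SE was the smallest of the 9, from a mean of 10645 normalized counts.

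In paused cells the same comparison gave smaller values for every member but Dppa2. The 5 Zscan4 copies, Tcstv3 and Dppa2 rose, by 1.4-fold to 1.63-fold, and again no member fell, where 22% of all genes did. These 7 of 9 stand beside 20.5% of all genes called higher in the authors' deposited table of paused cells. Here too 5 of the called members are Zscan4 copies that share windows, so the counts and the median do not rest on separate measurements. The same 7 genes were called higher in both tables, where 14.3% of the 19132 genes tested in both were. The median log2 change of the members was 0.59, against 0.00 over all genes, and 14.9% of all genes had a larger log2 change than the lowest Zscan4 copy. With equal summed counts 8 members were called higher, and 23.7% of all genes.

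The Zscan4 copies lay between 0.55 for Zscan4d and 0.70 for Zscan4b in the authors' deposited table of paused cells, with SE from 0.14 to 0.19. Zscan4c stood at 0.65 there, or 1.57-fold (95% interval 1.27 to 1.95, adjusted p 0.000188), with a mean of 9189 normalized counts. Zscan4d was the least certain copy, with an adjusted p of 0.0127 in the authors' deposited table. The distance between the highest and lowest copy, 0.15, was again smaller than the SE of a typical copy, 0.16.

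Tcstv3 rose by 0.66 in the authors' deposited table of paused cells (SE 0.21, adjusted p 0.00721), at a mean of 69.0 normalized counts. Tcstv1, at a mean of 15.8 normalized counts, had a value of 0.18 with an SE of 0.36 in the authors' deposited table (adjusted p 0.731). Zfp352 stood at 0.40 in the authors' deposited table (SE 0.18, adjusted p 0.0586), and passed the threshold with equal summed counts (0.44, adjusted p 0.0389, over a range of 0.0389 to 1 in its 6 alternatives). Dppa2 rose by 0.49 in the authors' deposited table (SE 0.06, adjusted p 1.21e-12), 1.4-fold with a 95% interval of 1.28 to 1.53.

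**Figure D1:**
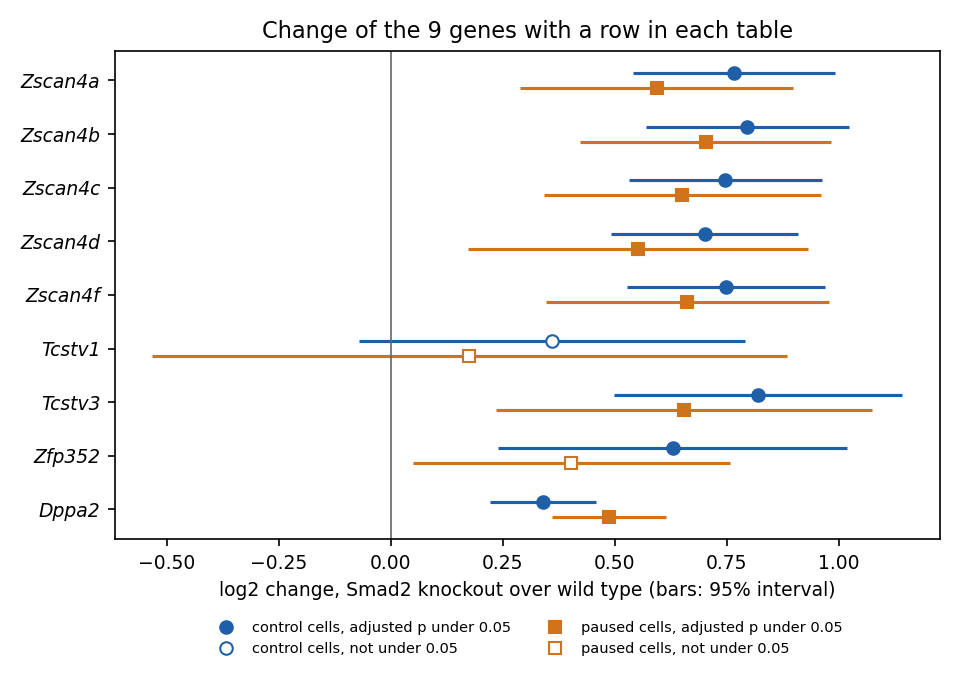
Log2 change of each member (knockout over wild type, x axis) with its 95% interval, for control cells (blue circles) and paused cells (orange squares); open symbols did not reach an adjusted p under 0.05. The Zscan4 copies sit between 0.55 and 0.80 with overlapping intervals, and the intervals of Tcstv1 include 0 in both conditions.

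These calls rest on the size of the authors' SE. With the statistic scaled so that its middle spread over all genes equals that of a standard normal, 0 of 9 members were called higher in control cells (0.956% of all genes were) and 0 of 9 in paused cells (1.61% of all genes). At an unadjusted p under 0.05 that scaled test left 6 members in control cells, beside 1860 of 19778 genes, and 1, Dppa2, in paused cells, beside 2091 of 19979 genes; the latter share is near that of all genes. When the null was any change up to 1.2-fold, 6 members were called higher in control cells (6.35% of all genes) and 2, Zscan4b and Dppa2, in paused cells (6.71% of all genes).

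The SE of the Zscan4 copies were wide for transcripts this abundant. In the authors' deposited table of control cells the SE of Zscan4f was 0.11, 2.11 times the median of the 177 genes with a mean count between 0.8 and 1.25 times its own. In the authors' deposited table of paused cells it was 0.16, or 3.93 times that of 575 such genes, and 99.5% of them had a smaller SE. Over the 5 copies the ratio ran from 2.03 to 2.27 in control cells and from 3.34 to 4.23 in paused cells. Zfp352 also had a wide SE (1.79 times in control and 1.33 times in paused cells), as did Tcstv3 (1.49 and 1.22 times), Duxf3 (1.41 and 1.85 times) and, in paused cells, Dppa2 (1.2 and 1.59 times). Tcstv1 (1.12 and 1.04 times) and Dppa4 (0.998 and 1.04 times) lay close to genes of like count. What widened these SE was not tested.

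**Figure D2:**
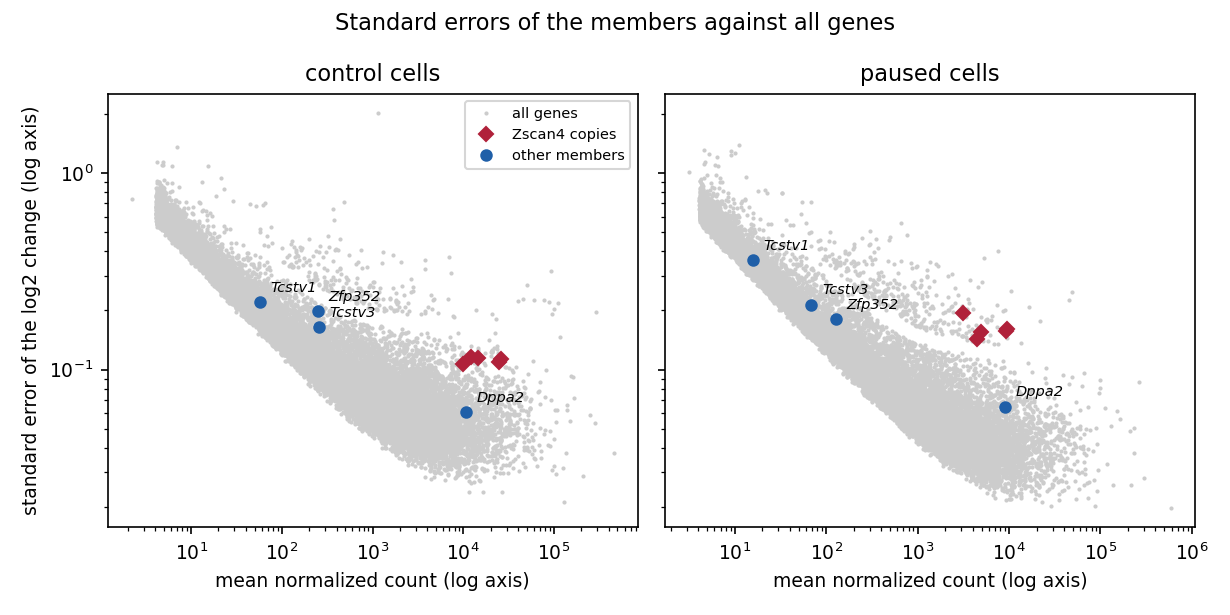
Standard error of the log2 change (y axis, log) against mean normalized count (x axis, log) for all genes (grey), the 5 Zscan4 copies (red diamonds) and the other members (blue circles), in control cells (left) and paused cells (right). The Zscan4 copies lie in the upper part of the cloud at their mean count, with ratios to genes of like count of 2.03 to 2.27 in control and 3.34 to 4.23 in paused cells.

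Whether the change itself differed between the conditions was tested as the paused minus the control change over the combined SE. No member passed (0 of 9, adjusted p from 0.499 to 0.922), where 1.44% of the 19132 genes did, and 0 members had an unadjusted p under 0.05, where 2464 genes did. The difference was -0.10 for Zscan4c (SE 0.19, interval of the ratio 0.721 to 1.21) and ran from -0.17 to -0.09 over the copies. Dppa2 had the only positive difference, 0.15 (SE 0.09, interval of the ratio 0.982 to 1.25). The intervals of the copies reach from 0.669 to 1.23, so a fold in paused cells anywhere from 0.669 to 1.23 times that in control cells lies within them. For all genes, 49.8% of the calls of this difference were positive as deposited and 35.9% with equal summed counts.

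Other genes of the 2-cell-like state rose as well. This list, like the members, was chosen with earlier results of these data known, so its counts are not independent support. Of 40 listed, 34 had a row in the authors' deposited table of control cells, 34 lay above 0 and 32 were called higher (19.5% of all genes were), with a median log2 change of 0.68. In paused cells 33 had a row in the authors' deposited table, 33 lay above 0 and 30 were called higher (20.5% of all genes were), with a median of 0.68. None was called lower in either table, and the 30 called in paused cells were all among those called in control cells, where 14.3% of all genes were called higher in both. The uncalled genes were Tdpoz1 and D5Ertd577e in control cells and Tdpoz1, Tdpoz5 and Pramef6 in paused cells. Many of these genes belong to families of near-identical copies as well, and AF067061, B020031M17Rik and Gm20767 share windows with Tcstv1 or Tcstv3.

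Duxf3, the Dux gene that codes for the factor at the entry to the state, rose by 0.95 in the authors' deposited table of control cells (SE 0.15, adjusted p 6.2e-09), at a mean of 272 normalized counts. It rose by 1.16 in the authors' deposited table of paused cells (SE 0.19, adjusted p 1.89e-08), at a mean of 252 normalized counts. Duxf3 shared 58.9% of its 50-base windows, and 33.6% of those of 100 bases, with other annotated genes, so its values may not be separate from theirs. Tmem92, a transmembrane protein gene, rose by 0.97 (SE 0.17) in control and 1.06 (SE 0.19) in paused cells of the authors' deposited tables. All 5 Usp17l genes, a deubiquitinase family, rose in both authors' deposited tables, with medians of 0.73 and 0.68. Usp17le rose by 0.82 in control and 0.99 in paused cells, and Usp17la by 0.73 and 0.99.

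Tdpoz2, a BTB-domain gene, rose by 1.07 (SE 0.45) and 1.01 (SE 0.43) in the authors' deposited tables at means of only 12.1 and 8.80 normalized counts. AF067061 rose by 0.78 (SE 0.33) and 1.07 (SE 0.30), Gm12794 by 0.87 (SE 0.14) and 0.98 (SE 0.21), and B020004J07Rik by 0.96 (SE 0.19) and 0.84 (SE 0.18) in the authors' deposited tables. None of the 33 genes passed the test of the difference between conditions (lowest adjusted p 0.537; 0 with an unadjusted p under 0.05, beside the 2464 genes above). When each statistic was divided by the spread of all genes, as above, 0 of the list were called in either table (8 of 34 in control and 4 of 33 in paused cells at an unadjusted p under 0.05, beside the same 1860 and 2091 of all genes, so the paused share is near that of all genes). A minimum of 5 ppm on abundance left 17 of these genes in paused cells, and 17 were called higher, where 20.2% of the genes above that minimum were.

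**Figure D3:**
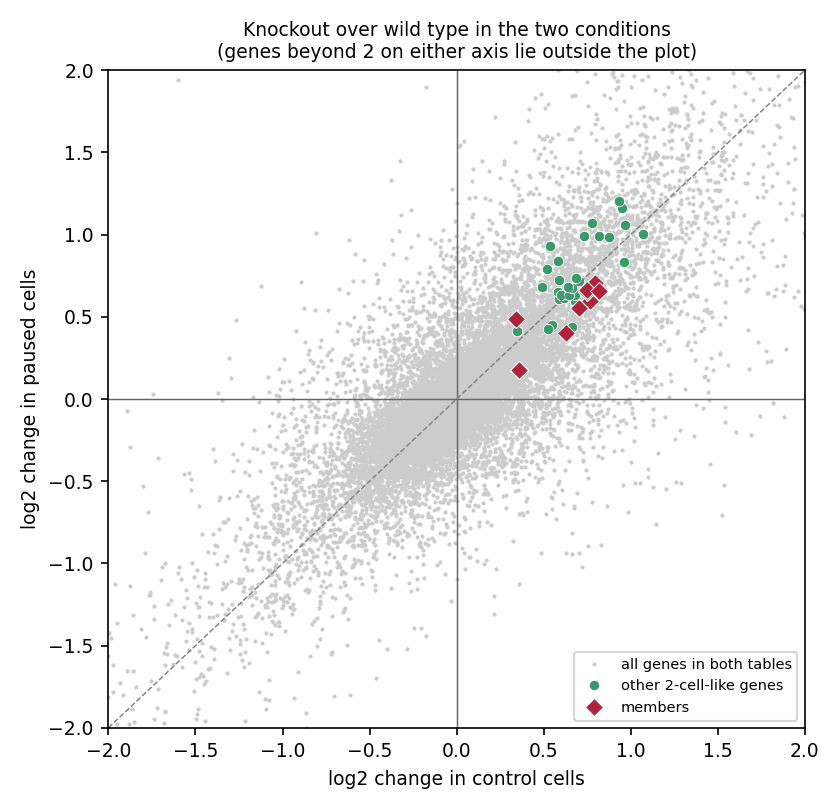
Log2 change in paused cells (y axis) against that in control cells (x axis), knockout over wild type, for all genes in both tables (grey), the 33 other 2-cell-like genes (green circles) and the 9 members (red diamonds); the dashed line marks equal changes. The 9 members and the 33 other genes lie above 0 on both axes, within a cloud of other genes that also reaches these values.

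Known regulators of the state were then read from the same tables. Of 3 activators 1 was called higher in each table, beside 19.5% and 20.5% of all genes: Nelfa, a subunit of the negative elongation factor that is linked to entry into the state, rose by 0.30 (SE 0.06) in control and 0.13 (SE 0.05) in paused cells of the authors' deposited tables. Dppa4, the partner of Dppa2, did not pass, at -0.12 (SE 0.05, adjusted p 0.0616) in control cells and 0.00 (SE 0.04, adjusted p 0.970) in paused cells of the authors' deposited tables. Trp53, which codes for p53, stood at -0.02 (above 0 with equal summed counts) and -0.05 and did not pass either. The difference between Dppa2 and Dppa4 within a table was not tested.

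Of 12 repressors, 5 fell and 2 rose in the authors' deposited table of control cells, beside 21.9% and 19.5% of all genes, so the share that rose was near that of all genes. The falls were Ncl, which codes for nucleolin (-0.22, SE 0.09), Chaf1b, a subunit of the chromatin assembly factor CAF-1 (-0.19, SE 0.07), Lin28a, an RNA-binding protein (-0.18, SE 0.06), Sumo2, a SUMO modifier (-0.16, SE 0.05), and Pcgf6, a Polycomb subunit (-0.14, SE 0.05). With equal summed counts none of these 5 was called, although all stayed below 0. Rif1, a replication timing factor (0.23, SE 0.08), and Setdb1, an H3K9 methyltransferase (0.14, SE 0.04), rose. In the authors' deposited table of paused cells Sumo2 alone fell (-0.20, SE 0.03), while Rif1 (0.23, SE 0.04), Setdb1 (0.15, SE 0.03), Zmym2 (0.13, SE 0.03) and Trim28 (0.10, SE 0.04) rose, where 22% of all genes fell and 20.5% rose. Chaf1a, Ehmt2 and Kdm1a passed in neither of the authors' deposited tables. With equal summed counts Kdm1a and Zmym2 were also called higher in control cells, and Ehmt2 in paused cells. Of all genes 24.1% and 23.7% were then called higher. Among these 15 listed regulators, which do not include Duxf3 or Dppa2, the largest change in either table was that of Nelfa in control cells, 1.23-fold. None of the 15 was called in either table against a null of up to 1.2-fold. Of all genes, 2090 of 19778 in control and 2122 of 19979 in paused cells were. At an unadjusted p under 0.05 that test left 0 of the 15, beside 3256 and 3241 genes. None was called with the scaled statistic, where 293 and 450 genes were. Setdb1, Rif1 and Sumo2 in paused cells then had an unadjusted p under 0.05, beside 2091 of 19979 genes. At shares this low, 0 of 15 says little about the regulators.

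Mean levels were compared per transcript length, as ppm (each gene's share of the summed mean counts of a table) per kilobase of the longest transcript. How reads that fit several Zscan4 copies were counted is unknown, so the level, order and share of a single copy may not be its own. In control cells Zscan4f (307 ppm per kb) and Zscan4c (236) stood highest, followed by Zscan4b (150.3), Zscan4a (139), Zscan4d (95.2) and Dppa2 (94.5). Tcstv3 (7.23), Zfp352 (2.39) and Tcstv1 (0.962) were far lower. In paused cells Dppa2 (83.5) stood below Zscan4f (117) and Zscan4c (91.1) but above Zscan4b (56.7), Zscan4a (49.3) and Zscan4d (31.2). The shares of the family's counts were close in both tables: Zscan4f held 29.6% in control and 30.3% in paused cells, Zscan4c 28.3% and 29.4%, Zscan4a 16.7% and 16.0%, Zscan4b 14.1% and 14.3%, and Zscan4d 11.4% and 10.0%.

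All 9 members stood lower in the paused table, by 1.13 times for Dppa2, 1.87 times for Zfp352, 2.59 to 3.05 times for the Zscan4 copies, and 3.45 and 3.61 times for Tcstv1 and Tcstv3, as ratios of ppm. Among the other genes of the state 32 of 33 were lower, with a median ratio of 2.23, against 8292 of 19132 genes lower and a median of 0.941 over all genes and 5.28% of all genes with a ratio over 2. Duxf3 stood at 5.92 ppm in the control and 5.69 ppm in the paused table, and Dppa4 was higher in the paused table (135 against 171 ppm). The tables were normalized separately and average both genotypes, so these ratios carry no error and no test.

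**Figure D4:**
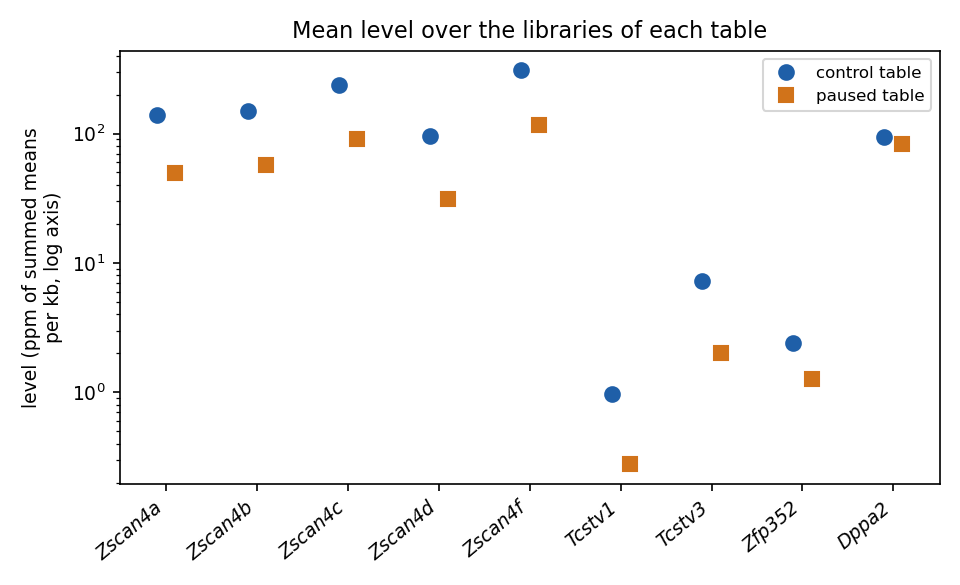
Mean level of each member in ppm of the summed mean counts per kb of transcript (y axis, log), averaged by the authors over libraries, in the control table (blue circles) and the paused table (orange squares). The Zscan4 copies and Dppa2 stand above 30 in both tables, Tcstv1, Tcstv3 and Zfp352 below 8, and the gap between tables is smallest for Dppa2.

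Markers of the cell types that the cultures could hold were read beside these results. All 6 embryonic stem cell markers (Pou5f1, Sox2, Nanog, Esrrb, Zfp42 and Klf4) had means of at least 8797 normalized counts in both authors' deposited tables. Klf4 rose by 0.56 in control and 0.26 in paused cells of the authors' deposited tables, and this difference passed its test (-0.30, SE 0.08, adjusted p 0.0264), though not at an adjusted p under 0.01, against a null of up to 1.2-fold or with the scaled statistic. Nanog rose by 0.32 and 0.18 in the authors' deposited tables, and Pou5f1 fell by 0.18 in control cells and stood at -0.08, not called, in paused cells. Of the 6, 2 were thus called higher and 1 lower in control cells, and 2 higher and 0 lower in paused cells. Sox2, Esrrb and Zfp42 passed in neither. All 5 primitive endoderm markers rose in both authors' deposited tables (medians 1.41 and 1.28), from summed means of 468 and 556 normalized counts. Of 5 trophoblast markers, 3 rose and 1, Cdx2, fell in each authors' deposited table (medians 1.29 and 1.26, with Hand1 at 1.95 and 2.69), with summed means of 1868 and 1954. Of 5 fibroblast markers, 4 had a row in control and 3 in paused cells, and 3 and 2 of them fell, with Col1a1 at -2.79 and -3.53 (log2); Lum had a row in neither of the authors' deposited tables. Of all genes in control cells 19.5% were called higher and 21.9% lower; for paused cells these shares were 20.5% and 22%. The part of any of these markers in the changes of the 2-cell-like genes was not tested.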

How the data were processed

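The authors deposited a results table for control and one for paused cells, each with the columns of a DESeq2 results table, per the file headers. The submitters' processing notes name Trim Galore, HISAT2, featureCounts, DESeq2 and mm10, with no versions; annotation, strand setting and the handling of reads that fit several copies are not given in the sources used here. The mean normalized count is a signal value averaged by the authors. The log2 change and its SE are on a log2 scale, as deposited. The deposited statistic is a score that equals the change over its SE. The deposited p-value and adjusted p-value were used as they stand; no adjusted p differed by over 1% from a recomputed Benjamini-Hochberg value.

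The difference between conditions was a two-sided normal test, with Benjamini-Hochberg adjustment over 19132 genes, tested on simulated data. Intervals are 95% normal intervals from the SE. Equal summed counts shifted changes by 0.06 (control) and 0.04 (paused) upward. The members, Smad2, Dppa4 and Duxf3 were named in any case. Some markers, genes near the members, genes that share windows with Tcstv1 or Tcstv3 and genes that did not pass in a table were also named. From the lists of other 2-cell-like genes and of regulators, the rule names per table at most 8 called genes, ranked on absolute change. One gene that this rule names is not reported here. The members and lists were chosen with earlier results of these data known. Sequences are from RefSeq (GRCm38.p6) and GENCODE M21. Python 3.11.15, numpy 2.4.6, scipy 1.17.1, pandas 2.3.3 and biopython 1.88 were used.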

Additional observations from a re-analysis of the deposited data

How the results depend on the processing

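Only the 3 rescalings (equal summed counts, the same with 4 libraries a genotype, and centring on the median gene) move a log2 change, and no member changed direction under them, in control cells, paused cells or their difference; the minimum on abundance left out Tcstv1 throughout and Tcstv3 and Zfp352 in paused cells and the difference. Tested against at most 1.2-fold, the counts of genes called were 2090 in control cells, 2122 in paused cells and 2 for the difference; after scaling each statistic to the middle spread they were 293, 450 and 35, and at an adjusted p under 0.01 the difference left 102. Members called higher against 1.2-fold were 6 of 9 in control and 2 of 9 in paused cells, where 6.35% and 6.71% of all genes were. With the scaled statistic 0 members were called higher in each condition, where 0.956% and 1.61% of all genes were. Other 2-cell-like genes called higher against 1.2-fold were 16 of 34 in control and 13 of 33 in paused cells, beside 6.35% and 6.71% of all genes. With the scaled statistic they were 0 in each, beside 0.956% and 1.61% of all genes. The minimum on abundance (5 ppm) left 17 of these genes in paused cells, and 17 were called. This is below the 30 called as deposited because called genes under 5 ppm were left out. The scaled statistic divides by 2.76 in control and 2.80 in paused cells, so it removes calls by its construction; which libraries or lines widen the spread was not tested. Over single members, 10 of 62 values in control cells and 13 of 60 in paused cells lost their call, 2 in paused cells (Zfp352, with equal summed counts) gained one, and 0 of 60 differences changed. Assuming 4 libraries a genotype for equal summed counts, added after seeing the data, gave Zfp352 an adjusted p of 0.0419. The share of promoters with TGCACAC was 2.17% on the forward strand alone. No paired analysis was possible because the tables hold no value for a single library, and leaving out each replicate was not run for that reason. Tcstv1 had the lowest means of the 9 members, 56.7 and 15.8 normalized counts, and the widest SE; the depth of the libraries is unknown.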

Other observations

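The genes around the members were read from the same tables, a choice made after the annotation was seen. Between Tcstv1 and Tcstv3, over 0.425 Mb of chromosome 13, RefSeq places 26 other genes, of which 9 had a row in the authors' deposited table of control cells. Of these, 8 lay above 0, 5 were called higher and 0 lower, with a median log2 change of 0.68, where 19.5% of all genes were called higher. In the authors' deposited table of paused cells 7 had a row, 6 lay above 0 and 4 were called higher, where 20.5% of all genes were. Besides the 3 genes of the list (B020031M17Rik, Gm20767 and AF067061), Gm21818 rose by 0.75 (SE 0.15) in control and 0.73 (SE 0.14) in paused cells of the authors' deposited tables, and BC147527 rose by 0.68 (SE 0.16) in control cells and stood at 0.42 (SE 0.28) in paused cells. Gm21188 lies in the same interval and stood below 0 in both authors' deposited tables, at -0.16 (SE 0.19) and -0.23 (SE 0.15), without passing. Gm21818 and BC147527 share windows of 50 bases with Tcstv3, so their values are not separate from it.

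Within the Zscan4 interval on chromosome 7, 2 of 24 other annotated genes had a row, Gm7789 and Gm6909. Both are at low counts and neither passed: Gm6909 stood at 0.63 (SE 0.27, adjusted p 0.0506) in control and 0.84 (SE 0.42, adjusted p 0.0931) in paused cells of the authors' deposited tables.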
